A study of Mus musculus with 4 samples.

Results

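The genes described here encode the enzymes that build cholesterol and its isoprenoid precursors, with the sterol sensors and transcription factors that control them. The set was given as 27 gene names, of 31829 names on the array, and every non-control probe carrying one of these names was taken, which gave 38 of 39429 probes. Spleen cells of female C57BL/6 mice, 8 weeks old, were cultured for 72 h with IL-4 and LPS, 2 agents that activate B cells, and both groups received them. In the imatinib group the medium also held 10 µM imatinib, which blocks tyrosine kinases such as ABL and KIT, and in the control group it did not. Each group had 2 RNA samples, each on its own Agilent array labelled in 1 colour (Cy3). Nothing in the labels tells whether the 2 samples of each kind had their own mouse or culture, so the p-values measure the spread between these arrays, which may be technical. The study was about antibody class switching, and its labels do not mention the sterol pathway.

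Cells make cholesterol from acetyl-CoA through mevalonate, which is turned into isoprenoid units and joined into farnesyl diphosphate. This branch point feeds squalene and the sterols, and also the longer prenyl chains used for protein prenylation, dolichol and ubiquinone. When membrane sterol is low, SCAP carries the SREBP transcription factors out of the endoplasmic reticulum to be cut and activated, and when it is high, INSIG proteins hold them back. Activated lymphocytes are known to raise this pathway as they grow and divide.

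The pathway was lower with imatinib at nearly every step. A gene passed when the Benjamini-Hochberg adjusted p of its probe was under 0.05 in the limma fit over all 25375 probes tested, and a gene with 2 probes was represented by the probe with the higher mean signal. Of 26 genes tested, 21 fell, 1 rose and 4 did not pass, while 22.8% of all 20544 genes tested fell and 18.8% rose. The median log2 difference (imatinib minus control) was -0.58 over the 26 genes and -0.0037 over all genes. The 24 genes with a negative difference had both imatinib arrays below both control arrays, as had 38.3% of all genes. A fall of at least 0.5 that passed was found in 17 of the 26, against 9.07% of all genes, and a fall of at least 1 in 2, against 1.35%. The scanner software marked all 38 probes as well above background on all 4 arrays and none as saturated. The dimmer Fdft1 probe, with processed signals of 11.1 to 16.6, was nevertheless close to background.

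**Figure D1:**
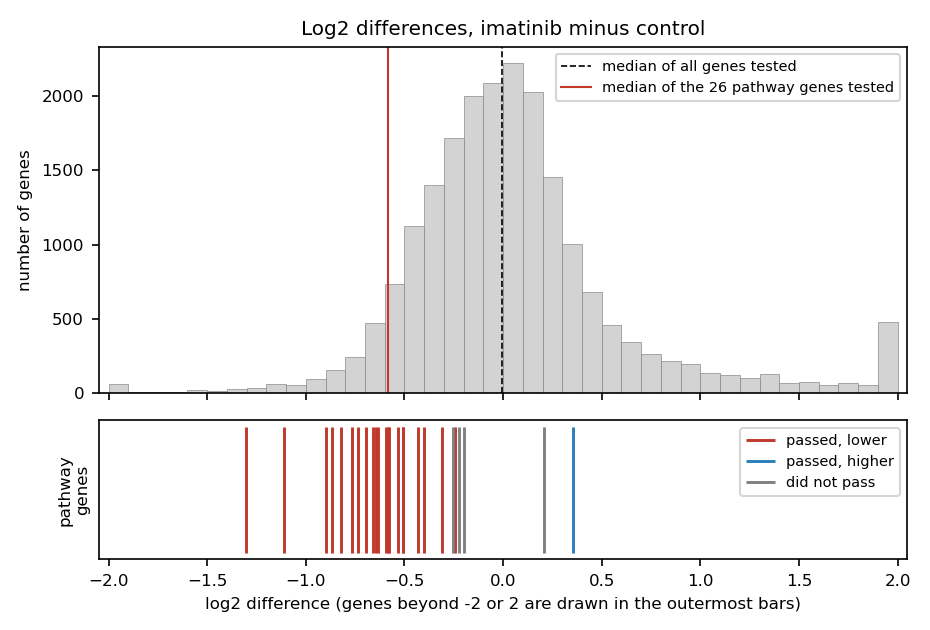
Histogram of the log2 differences of all genes tested (top; vertical axis, number of genes) and the differences of the 26 pathway genes as vertical lines (bottom). The pathway genes run from -1.30 (Lss) to 0.35 (Srebf2), with a median of -0.58.

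The counts fell when any 1 array was left out, in the set and over all genes. A fit with fewer arrays has less precision, so a call lost in this way need not mean a smaller difference. Without imatinib 1, 15 of the 26 genes fell and none rose, and without imatinib 2, 12 fell and none rose; 6.40% and 6.58% of all genes then fell. Without control 1 or control 2, 19 fell in each case, and 16.6% and 15.2% of all genes. The median of the 26 genes stayed between -0.61 and -0.55 when an array was left out. The sizes depend on the scaling: quantile normalization gave a median of -0.49, centring each array on its median gave -0.75, and scaling on spike-in probes gave -0.85. The last 2 settings shift every probe by 1 constant and moved the median of all genes to -0.18 and -0.27. Quantile normalization is not such a shift, and under it the pathway median lay -0.43 from that of all genes, against -0.58 in the main setting.

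In the data as a whole, 6013 probes fell and 4734 rose, 42.4% of those tested. Median centring gave 9251 that fell and 3305 that rose, and spike-in scaling gave 11739 and 2802. On each array, 25018 to 26762 probes were well above background, and the 75th percentile of the processed signal, to which all log2 levels below are relative, was 629 to 782. Pearson's r across tested probes, which are not independent replicates, was 0.997 to 0.998 within groups and 0.982 to 0.984 between them. With 2 arrays a side, the smallest two-sided p that an exact permutation can reach is 0.333.

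SREBP proteins bind sterol regulatory elements, usually beside a CCAAT box bound by NF-Y, and the stretches before the start sites are shown for 3 genes with such a match and for Lss, which fell most. RefSeq windows (assembly GRCm38.p6, 250 bases before to 50 after a start) were matched by symbol for 23 of the 27 genes, with 31 windows; Fdps, Fdft1, Sqle and Stard4 were not matched. Each stretch is 120 bases, on the strand of the gene, and its capitals mark a sterol element match (TCACNCCA or CACNCCAC) or a CCAAT box (CCAAT, or ATTGG when read on the other strand). Hmgcs1 is taken from chr13:119690158-119690277 (plus strand), Sc4mol from chr8:64733692-64733811 (minus strand), Srebf2 from chr15:82147051-82147170 (plus strand) and Lss from chr10:76531485-76531604 (plus strand).
Hmgcs1: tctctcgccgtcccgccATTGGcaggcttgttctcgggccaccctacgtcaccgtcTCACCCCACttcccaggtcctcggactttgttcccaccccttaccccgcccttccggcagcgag
Sc4mol: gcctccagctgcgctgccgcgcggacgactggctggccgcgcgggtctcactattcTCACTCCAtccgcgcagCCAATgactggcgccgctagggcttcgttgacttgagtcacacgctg
Srebf2: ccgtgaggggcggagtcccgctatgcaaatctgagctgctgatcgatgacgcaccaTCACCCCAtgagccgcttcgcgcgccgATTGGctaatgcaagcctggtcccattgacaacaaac
Lss: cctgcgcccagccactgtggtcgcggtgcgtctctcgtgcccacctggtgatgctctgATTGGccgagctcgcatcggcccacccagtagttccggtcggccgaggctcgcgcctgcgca

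In Hmgcs1 both sterol forms overlapped in 1 match, which began 137 bases before the start site, with a CCAAT box read on the other strand 176 bases before it. In Sc4mol the sterol match began 177 bases and the CCAAT box 160 bases before the start, and in Srebf2 they began 162 and 135 bases before it. Lss held a CCAAT box 62 bases before its start and no sterol match in its window.

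Over both strands, either sterol form was found in 5 of the 31 windows (Acat2, Hmgcs1, Sc4mol, Insig1 and Srebf2), 16.1% against 9.18% of all 32851 windows; the 2 forms share most of their letters and can overlap. A CCAAT box was found in 67.7% of the 31 windows and in 37.4% of all windows, the E-box CACGTG in 22.6% and 7.15%, and the GC box GGGCGG in 77.4% and 35.7%. The median GC content was 61.3% in these windows and 52.7% in all. The genes with a sterol match hold both Hmgcs1 and Sc4mol, which were lower with imatinib, and Srebf2, whose brighter probe was higher. These matches describe letters in a window and were not tested for binding, and a window without a match says nothing about sites elsewhere.

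Mevalonate and its activated forms are made by the first group of enzymes. Of its 5 tested genes 4 fell, against 22.8% of all genes tested, with a median of -0.43. Pmvk, which adds the second phosphate to mevalonate, changed most. Its brighter probe had log2 levels of 4.73 and 4.74 with imatinib and 5.91 and 5.78 without, and it fell by 1.11 (SE 0.073, adjusted p = 0.0023), to 46.3% of the control level. Its other probe, which shares no more than 8 bases in a row with it, fell by 1.20 (SE 0.059, adjusted p = 0.0012). The start of each Pmvk probe is shown because 2 different sequences gave nearly the same size.
Pmvk, A_55_P2076533, 30 bases: atggtggtgtttccctgtgtgtacgctctc
Pmvk, A_51_P492410, 30 bases: ggtgttgtgttttccctggagaggacactc

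Mvd, which removes carbon dioxide to give isopentenyl diphosphate, had levels of 3.19 and 3.30 with imatinib and 3.94 and 3.86 without, and fell by 0.66 (SE 0.074, adjusted p = 0.0067). Acat2, which joins acetyl-CoA units at the entry of the pathway, had levels of -1.31 and -1.33 against -0.83 and -0.94 and fell by 0.43 (SE 0.070, adjusted p = 0.014). Idi1, the isomerase that makes dimethylallyl diphosphate, fell by 0.31 (SE 0.064, adjusted p = 0.024), from 5.25 and 5.19 to 4.94 and 4.88. The groups did not overlap for any of these genes, yet the falls of Idi1 and Acat2 were small: without imatinib 1 the adjusted p was 0.10 and 0.078, and without imatinib 2 it was 0.15 and 0.084. Idi1 also failed without control 1 (0.072) and without control 2 (0.058).

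Mvk, mevalonate kinase, gave different calls on its 2 probes. The brighter probe had levels of 4.13 and 4.04 with imatinib and 4.46 and 4.22 without and differed by -0.26 (SE 0.10, adjusted p = 0.12), with the widest spread among the representing probes on the control arrays (SD 0.16). The other probe fell by 0.44 (SE 0.083, adjusted p = 0.020). Hmgcs1, the synthase that makes HMG-CoA, had 1 probe, and its spot on control 1 was marked as not uniform by the scanner software, so it was not tested in the main fit. Its levels were 5.40 and 5.35 with imatinib and 6.00 (the marked spot) and 6.01 without. With marked spots kept, a setting chosen after seeing the data, it fell by 0.63 (SE 0.058, adjusted p = 0.0046).

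**Figure D2:**
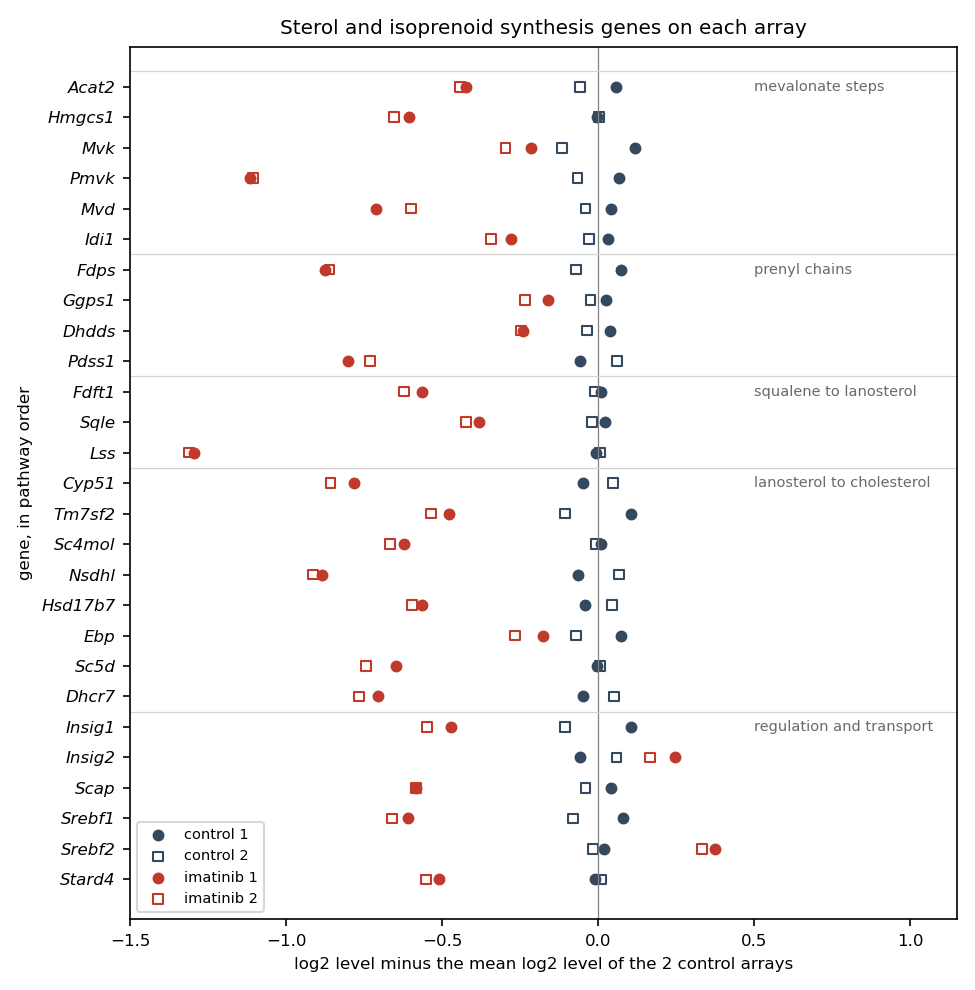
Log2 level of each of the 27 genes on each array, as the distance from the mean of its control arrays (horizontal axis), in pathway order; filled and open symbols are replicates 1 and 2, and Hmgcs1 includes its marked spot. For 25 genes, with the untested Hmgcs1 among them, the imatinib arrays lie left of both control arrays, as for 38.3% of all genes tested. For Insig2 and Srebf2 they lie right of both control arrays.

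Chains longer than the basic isoprenoid unit are built by 4 enzymes, of which 3 fell (median -0.50), against 22.8% of all genes tested. Fdps, which makes farnesyl diphosphate at the branch point, had levels of 5.13 and 5.14 with imatinib and 6.08 and 5.93 without, and fell by 0.87 (SE 0.076, adjusted p = 0.0041), to 54.8% of control. Pdss1, a subunit of the enzyme that makes the side chain of ubiquinone, had levels of -0.60 and -0.53 against 0.14 and 0.26. It was spotted 10 times on each array, and its averaged signal fell by 0.77 (SE 0.074, adjusted p = 0.0050). The genes of the other 2 chain-making enzymes moved least. Dhdds, a subunit of the enzyme that makes dolichol chains, fell by 0.24 (SE 0.062, adjusted p = 0.042) on its brighter probe and differed by -0.18 (adjusted p = 0.081) on the other; its call ended without any 1 of the 4 arrays (adjusted p 0.068 to 0.19), with the replicate block (0.099) and under quantile normalization (0.094). Ggps1, which makes geranylgeranyl diphosphate, had levels of 0.80 and 0.72 against 0.98 and 0.93 and differed by -0.20 (SE 0.064, adjusted p = 0.076), with -0.12 (adjusted p = 0.24) on its other probe.

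Squalene is made and closed into lanosterol by 3 enzymes, all of which fell (median -0.59), against 22.8% of all genes tested. Lss, the cyclase that forms the sterol rings, fell most of all genes in the set. Its levels were 1.05 and 1.04 with imatinib and 2.34 and 2.35 without, far apart beside SDs of 0.011 and 0.0088, and it fell by 1.30 (SE 0.057, adjusted p = 0.0011), to 40.5% of control. Only 0.759% of all genes tested had a lower difference. Fdft1, squalene synthase, had levels of 2.32 and 2.26 against 2.90 and 2.88 and fell by 0.59 (SE 0.060, adjusted p = 0.0055). A second Fdft1 probe, with processed signals of 11.1 to 16.6 close to background, differed by -0.03 (SE 0.24, adjusted p = 0.93), and with the mean of both probes the gene differed by -0.31 and did not pass (adjusted p = 0.11). Sqle, squalene epoxidase, fell by 0.40 (SE 0.060, adjusted p = 0.012), from 5.09 and 5.04 to 4.68 and 4.64; its call ended without imatinib 1 (0.071) and without imatinib 2 (0.085).

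Lanosterol is converted to cholesterol by the largest group. Of its 8 genes 7 fell, against 22.8% of all genes tested, with a median of -0.67. Nsdhl, which works with Sc4mol in removing methyl groups, had levels of 0.0022 and -0.027 with imatinib and 0.82 and 0.95 without, and fell by 0.90 (SE 0.073, adjusted p = 0.0036). Cyp51, the lanosterol demethylase, fell by 0.82 (SE 0.070, adjusted p = 0.0040), from 1.43 and 1.53 to 0.70 and 0.62. Dhcr7, which makes cholesterol from its immediate precursor, had levels of 0.29 and 0.23 against 0.95 and 1.05 and fell by 0.74 (SE 0.070, adjusted p = 0.0048). The groups were clear of each other for all 3, by distances larger than the spread within either group. Of all genes tested, 38.3% also had both imatinib arrays below both control arrays. Sc5d, the desaturase before it, fell by 0.70 (SE 0.066), and Sc4mol (Msmo1 in current naming), the methyl oxidase whose sterol match is printed above, had levels of 4.64 and 4.59 against 5.27 and 5.25 and fell by 0.64 (SE 0.059, adjusted p = 0.0045).

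Smaller falls were found for Hsd17b7, a ketone reductase (a difference of -0.58), and Tm7sf2, a sterol reductase (-0.51). The call of Hsd17b7 ended without imatinib 2 (adjusted p = 0.051), and that of Tm7sf2 ended without imatinib 1 (0.080) and without imatinib 2 (0.098). Ebp, the sterol isomerase, was the gene of this group that did not pass: it had levels of 5.13 and 5.04 with imatinib and 5.37 and 5.23 without and differed by -0.22 (SE 0.082, adjusted p = 0.10). Nsdhl, Hsd17b7 and Tm7sf2 each had a second probe that also fell, by 0.46, 0.32 and 0.52.

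The regulators did not move as one. Srebf1, which encodes SREBP1, had levels of -2.38 and -2.43 with imatinib and -1.69 and -1.85 without, and fell by 0.64 (SE 0.081, adjusted p = 0.0086). Scap, the escort protein of the SREBPs, had a level of 3.30 on each imatinib array against 3.93 and 3.84 and fell by 0.58 (SE 0.063, adjusted p = 0.0062). Insig1, a retention factor that is itself an SREBP target, fell by 0.51 (SE 0.097, adjusted p = 0.021), from 1.64 and 1.42 to 1.06 and 0.98. These 3 genes lay in the range of the enzymes. The call of Srebf1 ended without imatinib 2 (0.056), and that of Insig1 ended without imatinib 1 (0.077) and without imatinib 2 (0.10).

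Insig2, the retention factor less dependent on SREBP, lay on the other side of 0. Its levels were 0.41 and 0.33 with imatinib and 0.11 and 0.23 without, a difference of 0.21 (SE 0.075) that did not pass (adjusted p = 0.098), and its other probe differed by 0.28 (adjusted p = 0.11). Under spike-in scaling, which moved every probe by -0.27, the difference was -0.060. Whether Insig1 and Insig2 differ in their response was not tested.

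Srebf2, which encodes SREBP2, the main activator of the sterol enzymes, was the gene that rose, and this rests on 1 of its 2 probes. The brighter probe had levels of 1.87 and 1.83 with imatinib and 1.51 and 1.48 without, and rose by 0.35 (SE 0.059, adjusted p = 0.015). The other probe had levels of -1.80 and -1.84 against -1.74 and -1.49 and differed by -0.21 (SE 0.10, adjusted p = 0.19). The starts of both are shown because their differences lie on different sides of 0; they share no more than 5 bases in a row.
Srebf2, A_51_P377508, higher with imatinib, 30 bases: aactaggtctttgcaccagagagcattttg
Srebf2, A_55_P2000487, did not pass, 30 bases: atccagctgttcacctgtgacctgctactg

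The rise of Srebf2 also depended on the processing. It was 0.18 under median centring (adjusted p = 0.16), 0.09 under spike-in scaling (0.45) and 0.07 with the mean of both probes (0.44), and it did not pass without imatinib 1 (0.10), without imatinib 2 (0.086), without control 2 (0.055) or without a filter on dim probes (0.068). Stard4, a carrier that moves cholesterol between membranes, fell by 0.53 (SE 0.059, adjusted p = 0.0064) on its brighter probe, with levels of 2.01 and 1.96 against 2.51 and 2.52, and by 0.80 on the other; the first call ended without imatinib 2 (0.054).

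**Figure D3:**
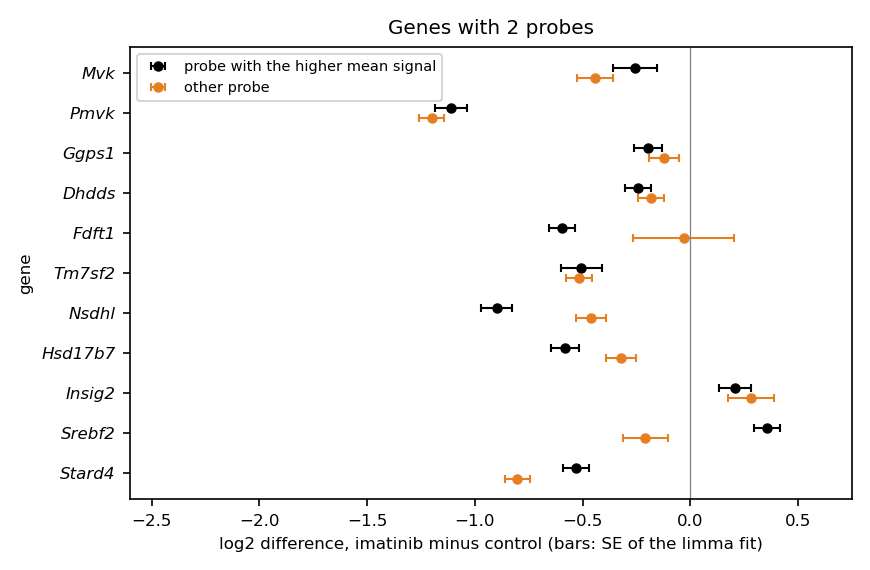
Log2 differences (horizontal axis, bars are the SE of the limma fit) of the 11 genes measured by 2 probes; the probe with the higher mean signal is black. In 10 genes both probes lie on the same side of 0, and in Srebf2 they do not.

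Measurements on separate probes can be set side by side for 11 of the 27 genes. In 10 of them both probes lay on the same side of 0, in 7 they had the same call, and in 5 both fell (Pmvk, Tm7sf2, Nsdhl, Hsd17b7 and Stard4). The distance between the 2 differences ran from 0.012 for Tm7sf2 to 0.56 for Fdft1 and Srebf2. The probes were 60 bases long, with 35% to 55% GC, and none held a run of a repeated 2-base or 3-base unit longer than 8 bases.

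The pathway's surroundings were described by 4 further lists, to be read against the 22.8% of all genes that fell and the 18.8% that rose. Of 11 tested genes for enzymes next to the pathway, 7 fell and 1 rose (median -0.47). Aacs, which makes acetoacetyl-CoA from ketone bodies, fell by 0.68 (SE 0.059, adjusted p = 0.0041), Acly, which makes cytosolic acetyl-CoA from citrate, fell by 0.62 (SE 0.069), and Cyb5b, an electron carrier, fell by 0.54. Idi2, a second isomerase gene, rose by 1.27 (SE 0.22, adjusted p = 0.016) at a low signal, from a mean log2 level of -5.31 to -4.03.

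Among 18 genes of sterol sensing and protein turnover, 8 fell and 2 rose (median -0.21). The ubiquitin ligase genes Fbxw7 and Mylip fell by 0.56 and 0.46. Nr1h3, which encodes the oxysterol receptor LXR alpha, rose by 1.06 (SE 0.13, adjusted p = 0.0081). Its signal was low, with a mean log2 level that went from -4.54 to -3.47. Of 19 genes of sterol uptake, transport and storage, 4 fell and 4 rose (median 0.08), shares near those of all genes. Vldlr, a lipoprotein receptor, rose by 1.80 (SE 0.079, adjusted p = 0.0010) at a low signal, from a mean log2 level of -4.01 to -2.21. Soat2, an acyltransferase that stores cholesterol as esters, rose by 0.57, from -2.34 to -1.77. Tmem97, an NPC1-binding protein, and Scarb1, an HDL receptor, were brighter (control means 3.96 and 1.86) and fell by 0.76 and 0.70.

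**Figure D4:**
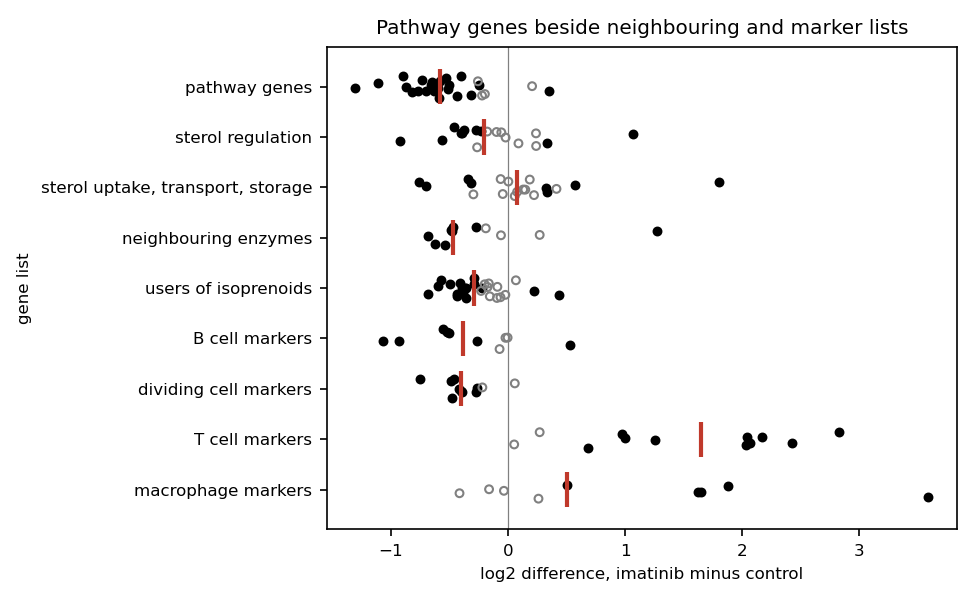
Log2 differences (horizontal axis) of the pathway genes and of 8 other lists; filled points passed, open points did not, and red bars are medians. The pathway median is -0.58, those of B cell and dividing cell markers are -0.39 and -0.40, and that of T cell markers is 1.64.

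Markers of the cells in the culture moved in the same arrays, and in such mixed samples fewer cells of a type and less RNA per cell cannot be told apart. Their counts are to be read against the 22.8% of all genes tested that fell and the 18.8% that rose. Of 10 B cell markers, 6 fell and 1 rose (median -0.39). Their summed linear level, in multiples of the 75th percentile, was 365 and 370 with imatinib and 420 and 393 without. Such a sum takes in every listed gene on the array, also genes that were not tested or not above background. Cd79a and Cd79b, the signalling chains of the B cell receptor, differed by -0.07 and -0.02 and did not pass. Of 11 tested markers of dividing cells, 9 fell and none rose (median -0.40), with sums of 198 and 195 against 252 and 248. Of 12 T cell markers, 10 rose and none fell (median 1.64), with sums of 46.0 and 46.4 against 24.7 and 23.8. Their part in the lower sterol genes was not tested.

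Markers of other cells were also measured, where 22.8% of all genes fell and 18.8% rose. Their lists are short, and their sums include listed genes that were not tested. Of 9 tested macrophage markers, 5 rose and none fell (median 0.50), with sums of 5.86 and 6.17 against 3.85 and 3.77; one of the 5, Msr1, entered the test only through the imatinib arrays, where it was high, so it could only come out higher. C1qa and C1qc were not above background on any array. Of 5 NK cell markers 3 rose and 1 fell, with sums of 5.55 and 5.54 against 4.24 and 4.13. Of 6 neutrophil markers 4 rose and 1 fell, yet their sums were lower with imatinib, 2.93 and 3.24 against 3.84 and 3.57. Of 4 dendritic cell markers 1 rose and 1 fell, with sums of 114 and 116 against 104 and 89.2, and of 6 plasma cell markers 3 rose and 2 fell, with sums of 182 and 171 against 170 and 167. Of 4 erythroid markers 2 rose and none fell, with sums of 2.22 and 2.29 against 1.61 and 1.64. All 3 tested markers of mast cells and basophils were higher. The sums over the 6 listed genes, tested or not, were 0.16 and 0.15 against 0.052 and 0.050. Itgax, the dendritic cell marker that rose, S100a9 of the neutrophil list and Cpa3 and Mcpt8 of the mast cell list entered the test only through the imatinib group, as Msr1 did. The defining markers Ncr1 and Klrb1c (NK cells), Cxcr2 and Ngp (neutrophils), Xcr1, Clec9a and Cd209a (dendritic cells), Klf1 and Ahsp (erythroid cells) and Fcer1a, Ms4a2 and Gata2 (mast cells) were not above background on any array.

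**Figure D5:**
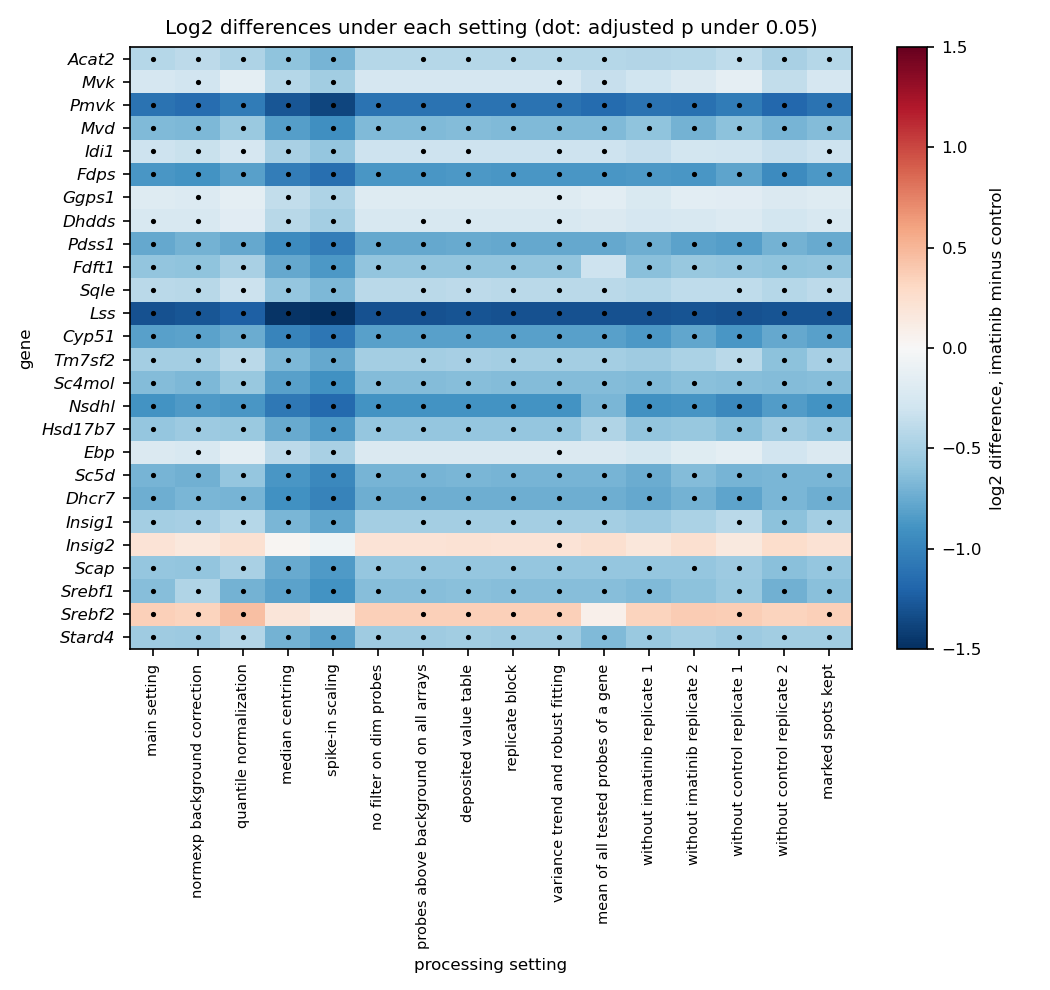
Log2 differences (colour) of the 26 tested genes (rows) under the main setting and 15 alternatives (columns); dots mark an adjusted p under 0.05. In 24 genes every setting gives a negative value, and 11 genes pass under all of them. The same counts over all genes were not computed.

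Across the main setting and 15 alternatives, 24 genes kept a negative difference under each, and 11 of them passed each time: Pmvk, Mvd, Fdps, Pdss1, Lss, Cyp51, Sc4mol, Nsdhl, Sc5d, Dhcr7 and Scap. They lie in the mevalonate steps, the prenyl chains and the sterol enzymes, with Scap as the regulator among them. The adjusted p of Lss ran from 2.5e-09 to 0.012 and that of Scap reached 0.048.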

How the data were processed

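The authors' deposited scanner files (Agilent Feature Extraction, per the file headers) hold fluorescence intensity per spot; the processed signal used here had its background subtracted and a spatial trend removed array by array. Per the labels, the authors obtained their log2 value table with GeneSpringGX; after a shift of 1 constant per array it equalled log2 of the processed signal within 0.01 for 99.88% to 99.93% of probes, with column medians of -4.17 to -3.92, so its scale is log2, its direction is that of the signal and its centring was taken as the array's 75th percentile.

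Here, spots marked as outliers were left out, log2 signals were averaged per probe and the array's 75th percentile was subtracted. Probes well above background on both arrays of a group (25467) were tested, except 92 with a marked value, with limma 3.58.1 in R 4.3.3 (lmFit and eBayes; the 2 groups without covariates; two-sided; 2 residual and 2.06 prior degrees of freedom). The script was tested on simulated data. SDs and SEs are on the log2 scale (n = 2 arrays a group). All arrays lay on 1 slide. Members and lists were chosen with earlier results of these data known. Named genes are all members and, per list, up to 4 genes with the largest change that passed; some are not reported here. Cd79a and Cd79b, and markers named for a low signal, were picked after their values were seen. Names are those of the files. The number of arrays limits the precision. Alternatives are given in the closing section.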

Additional observations from a re-analysis of the deposited data

How the results depend on the processing

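Of 390 values of single genes under the 15 alternatives, 338 kept their direction and their side of the threshold, 37 kept their direction and no longer passed, 14 newly passed, and 1, Insig2 under spike-in scaling, turned to -0.060 through the constant shift of -0.27 that this scaling gives every probe. The number of genes that rose was 0 under median centring, spike-in scaling, no filter on dim probes and the mean of all probes of a gene, and 2 with a variance trend and robust fitting (adjusted p of Insig2 0.019), against 1 in the main setting; the genes of the set that fell numbered 24 with median centring, where 35.3% of all genes fell, 24 with spike-in scaling (45.0%), 15 without the filter (5.78%), 20 with the mean of all probes and 24 with the variance trend (28.2%). The median of the set was -0.55 with normexp background correction (offset 50), -0.49 under quantile normalization, -0.75 under median centring, -0.85 under spike-in scaling and -0.55 with the mean of all probes. When 1 array was left out, 12 to 19 genes fell, 0 to 1 rose, the median ran from -0.61 to -0.55, and 4128 to 8984 of all probes passed; without the filter 5186 of 39337 passed, against 10747 in the main setting.

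The replicate numbers are shared by both groups but nothing in the labels pairs the samples, and the deviations of replicate 1 from the group means correlated at -0.069 between groups. With the replicate number as a block, 19 genes fell and 1 rose, where 14.9% of all genes fell, and 7643 probes passed. Idi1 (adjusted p = 0.061) and Dhdds (0.099) were the genes of the set that no longer passed. Marked spots kept (chosen after seeing the data) gave 22 of 27 genes lower and 1 higher, where 22.7% of all genes were lower. Causes were not tested. Arrays carry no read depth; all 38 probes stood above background, and the dim Fdft1 probe had the largest SE among them (0.24).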

Other observations

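Genes that use the isoprenoid products were lower more often than higher. Of 27 tested genes for protein prenylation, dolichol-linked sugar transfer and ubiquinone synthesis, 15 fell and 2 rose (median -0.29), where 22.8% of all genes fell and 18.8% rose. Coq4 and Coq5, of ubiquinone synthesis, fell by 0.68 (SE 0.070, adjusted p = 0.0056) and 0.57 (SE 0.070, adjusted p = 0.0078). Pdss2, the partner subunit of Pdss1, fell by 0.59 (SE 0.073, adjusted p = 0.0079), beside a fall of 0.77 for Pdss1. Pggt1b, a subunit of the enzyme that attaches geranylgeranyl groups to proteins, fell by 0.49 (SE 0.062, adjusted p = 0.0083). On these arrays the median difference was -0.39 for B cell markers and -0.40 for markers of dividing cells, and their part in these values was not tested.

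Between arrays of the same group, 22 of the 26 pathway genes were higher on imatinib 1 than on imatinib 2, as were 45.2% of all genes. The median SD on the imatinib arrays was 0.038 over the 26 genes and 0.053 over all genes. On the control arrays 9 of the 26 were higher on control 2 than on control 1, as were 37.7% of all genes. The median SD there was 0.064 over the 26 genes and 0.075 over all genes.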
